A study of Mus musculus with 67 samples.

Results

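The change in RNA between the morula and the blastocyst of unexposed mouse embryos was measured by comparing 3 control blastocyst libraries with 13 control morula libraries. These 16 of the 67 libraries of the series were chosen by their titles, which give the group, the stage and the number of the embryo. All were SMART-seq2 libraries, which amplify polyadenylated RNA from very small samples, of C57BL/6 embryos made by fertilization in vitro and cultured in the dark. The study describes the libraries as single cells picked by hand from dissociated embryos, so a blastocyst library can stand for a cell of the outer or of the inner lineage. The other group of the series received its light as 2-cell embryos and was kept dark from then on, and its 6 morula and 6 blastocyst libraries were used here only to test whether the control change differed from theirs. The labels do not say whether libraries came from separate embryos, and the p-values below measure the spread between libraries, which were taken as independent.

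The morula is a compacted ball of cells that look alike, and the blastocyst that follows it holds a fluid-filled cavity and its first separate lineages. The outer cells form the trophectoderm, an epithelium that pumps sodium and water into the cavity and later builds the placenta, under transcription factors such as CDX2, GATA3 and EOMES. The inner cell mass gives the epiblast, marked by NANOG and SOX2, and the primitive endoderm, which is marked by GATA6 and SOX17 and lays down laminin and collagen. Hippo signalling separates outer from inner cells, and FGF4 made by the epiblast sets the primitive endoderm apart.

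The 13 control morula libraries held 3373581 to 6281954 reads and the control blastocyst libraries 4913651, 8172449 and 4383151 reads. Most of these lay on CT010467.1 and Gm42418, a pair of genes at a ribosomal RNA locus, which took 57.9% to 84.6% of the reads of a morula and 73.8% to 81.0% of those of a blastocyst. Levels are therefore given as CPM, the reads of a gene scaled to the sum of all reads outside that pair, which numbered 683775 to 1624607 in the morulae and 932214, 2144867 and 1141467 in the blastocysts. CPM takes no account of transcript length, so levels were compared between libraries and never between genes. Reads on the mitochondrial genome made up 2.59% to 4.40% of these in morulae and 7.99% to 9.5% in blastocysts, and the ratio of Gm42418 to CT010467.1 reads was 2.34 to 4.14 in morulae and 1.42 to 1.45 in blastocysts. Neither range overlapped between the stages, and their part in the changes below was not tested. The number of genes above 1 CPM was 9767 to 12129 in morulae and 12504 to 13538 in blastocysts. Summed reads on 5 Y-linked genes reached 10 CPM in 0 of 13 morulae and 0 of 3 blastocysts. The highest sums were 0.782 CPM in a morula and 1.07 CPM in a blastocyst, so no control library of either stage showed Y-linked RNA at that level. Whether these libraries share embryos was not tested.

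Of 15708 genes tested, 2068 (13.2%) were DEGs, that is, had a Benjamini-Hochberg adjusted p under 0.05 in limma and a change of at least 2-fold on log2(CPM + 1). In blastocysts 1221 of them (7.77% of the genes tested) were higher and 847 (5.39%) were lower. The blastocysts lay above every morula in 704 genes (4.48%) and below every morula in 674 (4.29%), whether or not the gene was a DEG, so the groups did not overlap in 8.77% of genes, and 1159 DEGs were among these. The median log2 fold change of all genes was 0.40, so list medians are read against that value rather than against 0. Without blastocyst 1, 2 or 3 the DEGs numbered 1219, 1230 and 1115, while leaving out any morula gave 1978 to 2133. The share of DEGs that were lower was 41.0%, but 57.8% after quantile normalization, 66.4% in DESeq2 and 59.2% once the trend with transcript length was removed.

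The largest rises were taken among genes whose groups did not overlap and whose mean reached 20 CPM in a group. Msn encodes moesin, which ties the membrane to actin. It lay between 0 and 14.6 CPM in the morulae, with a median of 0, and at 167, 477 and 1558.5 CPM in blastocysts 1, 2 and 3. Its log2 fold change was 8.09 ± 1.04 (SE, adjusted p = 8.24e-06). Lcp1, for the actin-bundling protein L-plastin, was at 0 to 76.0 CPM in morulae with a median of 0.782 and at 255, 283 and 742 CPM in blastocysts, a log2 change of 6.64 ± 1.31 (adjusted p = 0.00111).

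A further group of these risers had no read in any of the 13 morulae. Spp1, which encodes osteopontin, a secreted ligand of integrins, stood at 798, 733 and 15.8 CPM in the blastocysts. Lama1, for the alpha 1 chain of laminin in basement membranes, stood at 637, 95.1 and 26.3 CPM. Upp1, for uridine phosphorylase, stood at 521, 216 and 10.51 CPM. All 3 genes were highest in blastocyst 1 and lowest in blastocyst 3. Slc15a2, which encodes an oligopeptide transporter, ran the other way, at 8.58, 110 and 430 CPM, and Sft2d2 was even across the blastocysts at 70.8, 83.0 and 93.7 CPM. Against a floor of 3 reads over the whole morula group, or 0.225 CPM, the means of the blastocysts were at least 2290-fold higher for Spp1, at least 1123-fold for Lama1, at least 1107-fold for Upp1, at least 812-fold for Slc15a2 and at least 366-fold for Sft2d2. Adjusted p-values of these 5 genes in limma lay between 2.18e-08 and 2.62e-06. Their calls could not be repeated without a blastocyst, because they then fell under the filter of 3 libraries. A gene with no read in any morula passed that filter only when all 3 blastocysts were above 1 CPM. The p-values of such genes are therefore not separate support for a rise. In all, 84 DEGs had no read in any morula, and each passed the filter in this way.

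The remaining risers were Glrx, Dppa1, Nxf7, Slc7a8 and B3gnt5. Glrx encodes the redox enzyme glutaredoxin and went from 0 to 17.1 CPM in morulae (median 0) to 457, 280 and 275 CPM in blastocysts, a log2 change of 7.46 ± 1.07 (adjusted p = 3.44e-05). Dppa1, a trophectoderm marker of the lists used here, went from 0 to 3.72 CPM in morulae (median 0) to 31.1, 191 and 888 CPM, a log2 change of 7.15 ± 0.85 (adjusted p = 2.95e-06). Slc7a8, for a transporter of large neutral amino acids, had 1 read in all morulae together and 94.4, 63.4 and 225 CPM in the blastocysts. Its pooled level was 1520-fold higher, with a 95% counting interval of 271 to 60100. Nxf7, of the nuclear RNA export factor family, was at 0 to 14.9 CPM in morulae and 62.2, 169 and 300.5 CPM in blastocysts. B3gnt5, a glycosyltransferase of glycolipids, was at 0 to 35.1 CPM and then at 46.1, 120 and 1028.5 CPM. In each of these 5 genes all blastocysts lay above all morulae.

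**Figure D1:**
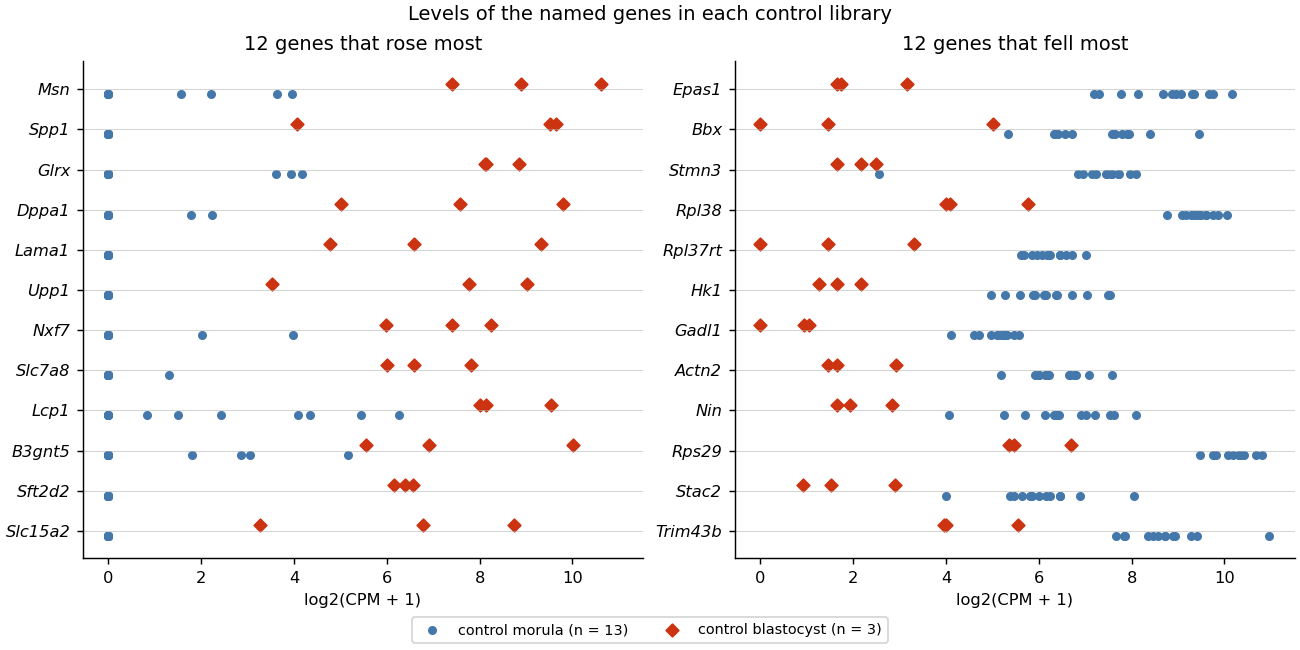
Level of the 12 genes with the largest rise (left) and the 12 with the largest fall (right) in each control library, on a log2(CPM + 1) axis, with circles for the 13 morulae and diamonds for the 3 blastocysts. The groups do not overlap in any of the 24 genes, by the rule that chose them, and Spp1, Lama1, Upp1, Sft2d2 and Slc15a2 are at 0 in every morula.

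The stretches upstream of 3 genes with higher RNA in blastocysts are shown because they hold the letters AGATAA, which GATA factors of the trophectoderm bind, on either strand. They come from RefSeq (GRCm38.p6) and run from 250 bases before the annotated start up to that start, 5′ to 3′ on the strand of the gene, with the match in capitals. The Dppa1 stretch is chr11:46629275-46629524 on the minus strand, that of Slc15a2 is chr16:36784963-36785212 on the minus strand, and that of Krt8, for the trophectoderm keratin 8, is chr15:102004343-102004592 on the minus strand.
Dppa1: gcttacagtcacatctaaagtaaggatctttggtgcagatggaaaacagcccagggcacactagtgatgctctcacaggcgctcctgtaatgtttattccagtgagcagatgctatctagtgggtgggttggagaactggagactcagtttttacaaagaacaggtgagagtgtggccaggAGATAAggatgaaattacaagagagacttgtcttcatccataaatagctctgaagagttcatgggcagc
Slc15a2: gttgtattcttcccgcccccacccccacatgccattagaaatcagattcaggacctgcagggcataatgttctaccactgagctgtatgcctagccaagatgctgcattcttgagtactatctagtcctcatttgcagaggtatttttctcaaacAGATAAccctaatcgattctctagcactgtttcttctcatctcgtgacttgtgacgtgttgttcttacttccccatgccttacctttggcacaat
Krt8: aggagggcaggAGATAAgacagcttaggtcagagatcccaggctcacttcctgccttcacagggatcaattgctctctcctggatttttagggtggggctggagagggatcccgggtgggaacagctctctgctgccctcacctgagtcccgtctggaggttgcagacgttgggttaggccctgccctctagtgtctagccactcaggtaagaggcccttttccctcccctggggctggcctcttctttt
The matches begin 69, 95 and 239 bases before the annotated starts. Over windows of 300 bases that also took in the 50 bases after the start, AGATAA or its reverse complement TTATCT stood in 3672 of 32841 promoters (11.2%). It stood in 4 of 18 promoters (22.2%) of the named risers, of which 11 of 12 genes had an entry, and in 3 of 20 promoters (15%) of the trophectoderm list. These shares are descriptions and no binding was measured.

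The largest fall was that of Epas1, which encodes HIF-2 alpha, a transcription factor of the response to low oxygen. It lay between 146 and 1146 CPM in the morulae, with a median of 497, and at 2.15, 2.33 and 7.88 CPM in blastocysts 1, 2 and 3. The log2 change was -6.60 ± 0.54 (adjusted p = 2.47e-08). Hk1, for hexokinase 1 at the entry of glycolysis, fell from 30.5 to 186 CPM (median 70.5) to 2.15, 1.40 and 3.50 CPM, a log2 change of -4.57 ± 0.58 (adjusted p = 6.81e-06).

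Stmn3, of the stathmin family that acts on microtubules, went from 4.89 to 274 CPM (median 177) to 2.15, 4.66 and 3.50 CPM. Nin, for the centrosomal protein ninein, went from 15.7 to 272 CPM (median 85.9) to 2.15, 2.80 and 6.13 CPM. Actn2, for the actin crosslinker alpha-actinin 2, went from 35.2 to 191 CPM (median 73.0) to 2.15, 6.53 and 1.75 CPM. Their log2 changes were -4.99 ± 0.76, -4.38 ± 0.67 and -4.39 ± 0.53, with adjusted p between 3.85e-06 and 7.27e-05. Bbx, an HMG-box factor, was at 0, 31.2 and 1.75 CPM in blastocysts against a lowest morula of 39.4 CPM. Gadl1, a decarboxylase, held 3 reads in all blastocysts and 456 in all morulae, a pooled level 48.1-fold lower with a 95% counting interval of 16.4 to 234. Stac2 and Trim43b fell by 4.26 and 4.25 on the log2 scale. The other fallers chosen by the rule were Rpl38, Rps29 and Rpl37rt, which are taken up with the ribosome. All 24 named genes kept their direction on each of the other scalings, and none of the 24 lost its call without any 1 library where it could be tested.

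The lineage markers were then taken as fixed lists. Counts in these and the later lists stand against 7.77% of all genes higher and 5.39% lower. Both the lists and the 7.77% include DEGs with no read in any morula, whose calls are not separate support for a rise. Of these, 2 are in the extracellular matrix list. The epiblast, primitive endoderm, junction, FGF and amino acid transport lists hold 1 each. Of 20 trophectoderm markers tested, 8 rose and 0 fell, with a median log2 change of 2.85 against 0.40 for all genes, although 3 were lower once the length trend was removed. The transcription factors among them were Gata2, Eomes, Tfap2a and Id2, and the others were Krt8, Dppa1, Plac1 and Tspan8. Eomes was at 0 to 110 CPM in morulae (median 1.08) and at 74.0, 173 and 867 CPM in blastocysts, a log2 change of 5.09 ± 1.57 (adjusted p = 0.033). Its call was lost without any of the 3 blastocysts. Id2, an inhibitor of bHLH factors, was at 0 to 47.8 CPM (median 0) and at 41.8, 318 and 585 CPM, a log2 change of 6.27 ± 1.29 (adjusted p = 0.00172). Tspan8, a tetraspanin, was at 0 to 44.6 CPM and at 6.44, 139 and 466 CPM.

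In all of these trophectoderm genes blastocyst 3 was the highest and blastocyst 1 the lowest. Gata2 shows this most plainly, with 1 read in all morulae and 3.22, 3.26 and 194 CPM in the blastocysts, a pooled ratio of 729 with a 95% counting interval of 130 to 28900. Krt8 was at 0 to 527 CPM in morulae (median 148) and 523, 1994 and 3869 CPM in blastocysts, and lost its call without blastocyst 2 or 3. The 8 calls became 9, 6 and 6 without blastocyst 1, 2 or 3, and 1 marker was then called lower without blastocyst 3. Cdx2 and Gata3, the factors placed first in the list, did not pass the test. Cdx2 was at 0 to 199 CPM in morulae (median 51.6) and at 16.1, 224 and 267 CPM, so blastocysts 2 and 3 lay above all morulae and blastocyst 1 did not (log2 change 2.02, adjusted p = 0.406). Gata3 was at 0 to 920 CPM (median 181) and 82.6, 332 and 1213 CPM (adjusted p = 0.452).

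Of 19 epiblast and inner cell mass markers tested, 2 rose and 0 fell, with a median log2 change of 0.42, close to the 0.40 of all genes, and 1 was lower after quantile normalization. The 2 were Upp1 and Tfcp2l1, a factor of naive pluripotency, which went from 560 to 2070 CPM (median 1044) to 4048, 1934 and 1266 CPM (log2 change 1.07 ± 0.32, adjusted p = 0.0270). The call of Tfcp2l1 was lost without blastocyst 1 or 2, or without 1 of the morulae. Nanog, at 6.48 to 548 CPM in morulae (median 73.0) and 510, 404 and 89.4 CPM in blastocysts, did not pass the test (log2 change 2.02, adjusted p = 0.191). Pou5f1, at 332 to 784 CPM in morulae (median 497), stood at 1040, 535 and 271 CPM, above, within and below the morulae. Sox2 was at 0 to 29.7 CPM in morulae (median 0) and 37.5, 17.2 and 0.876 CPM in blastocysts (adjusted p = 0.0778). For Upp1, Tfcp2l1, Nanog, Pou5f1 and Sox2 alike blastocyst 1 was the highest and blastocyst 3 the lowest.

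Of 18 primitive endoderm markers tested, 5 rose and 0 fell, with a median log2 change of 1.77. The 5 were Lama1, Lamb1, Lamc1, Sparc and Serpinh1, which encode laminin chains, a collagen-binding matrix protein and a chaperone of collagen. Sparc had 3 reads in all morulae and 178, 36.8 and 55.2 CPM in the blastocysts, a pooled ratio of 324 with a 95% counting interval of 110 to 1580. Serpinh1 was at 0 to 4.96 CPM in morulae (median 0) and 204, 37.3 and 0.876 CPM. The transcription factors of this lineage did not pass the test. Gata6 was at 177 to 616 CPM in morulae (median 391) and 530, 282 and 49.9 CPM in blastocysts (log2 change -0.84, adjusted p = 0.262), Gata4 was at 0 to 83.2 CPM and then 144, 0.466 and 7.88 CPM, and Sox17, at 0 in the morulae and at most 52.6 CPM in a blastocyst, did not reach the filter. Sox7 had no read in either group. The 5 calls fell to 1, 1 and 3 without blastocyst 1, 2 or 3, in part because Lama1 then no longer passed the filter.

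The summed lists placed the 3 blastocysts in an order. Trophectoderm markers summed to 1354, 5454 and 12056 CPM in blastocysts 1, 2 and 3, against 474 to 3563 CPM in morulae. Epiblast and inner cell mass markers summed to 10746, 5882 and 3391 CPM, against 3921 to 5803 CPM in morulae. Primitive endoderm markers summed to 4267, 3575 and 2165 CPM, against 701 to 3076 CPM in morulae. Blastocyst 1 was thus within the morulae in trophectoderm markers and above them in both inner lists, blastocyst 3 was above them in trophectoderm markers and below them in the epiblast list, and blastocyst 2 lay above all morulae in all 3. With 3 libraries that differ this much, a mean over blastocysts depends on which cells were picked, and stage and lineage cannot be told apart for a gene that follows either order.

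**Figure D2:**
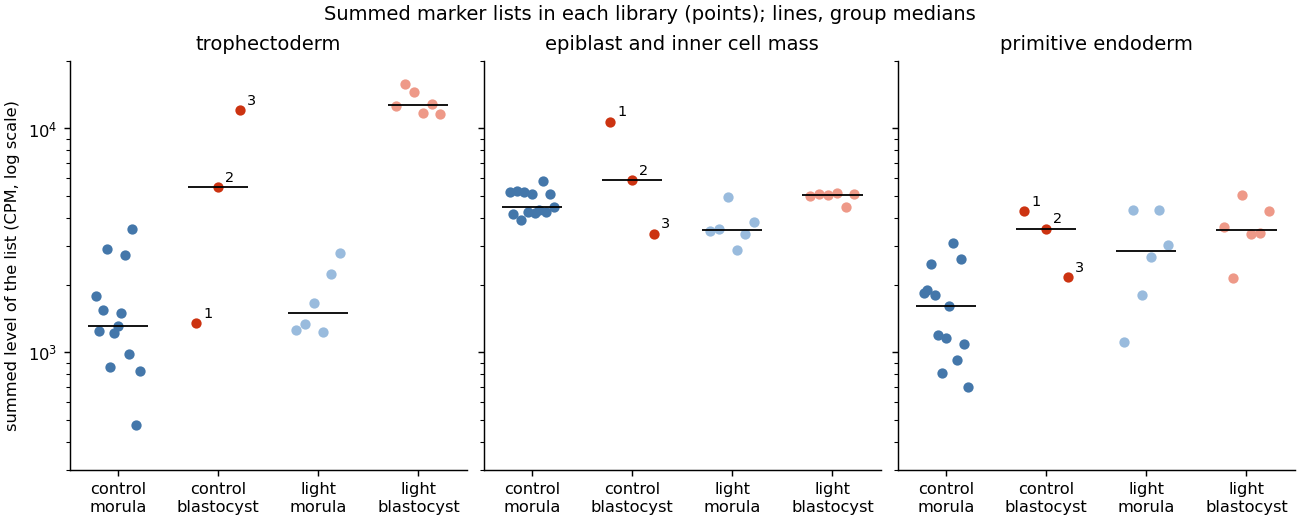
Summed CPM of the trophectoderm (left), epiblast and inner cell mass (middle) and primitive endoderm (right) lists in each library, on a log axis, with a line at the median of each group and the number of each control blastocyst beside its point. The control blastocysts run from 1354 to 12056 CPM in trophectoderm markers and in the opposite order in the inner lists.

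Lists for other cells and for earlier RNA gave no DEGs in the limma fit on log2(CPM + 1) that defines them here. Cumulus and granulosa cell markers, 11 of 14 of which are in the table, had 3 tested and 0 called, and their sum was 0 to 27.8 CPM in morulae and 5.26 to 16.1 CPM in blastocysts. Ptgs2 was at 0 to 2.19 CPM in morulae and had no read in the blastocysts, and Has2 and Ptx3 were not analysed here. Of the sperm markers 1 was tested and not called, and Prm1, Prm2, Tnp1 and Tnp2 had no read in any of the 16 libraries. Of 25 oocyte and maternal RNAs, such as the zona pellucida genes Zp1, Zp2 and Zp3 and the oocyte growth factor Gdf9, 0 were called, with a median log2 change of -0.18. Gdf9 was at 0 to 15.1 CPM in morulae and 3.22, 2.33 and 3.50 CPM in blastocysts. Of 6 genes of the transient 2-cell programme 0 were called, and Zscan4c was at 0 to 1.29 CPM in morulae and 3.22, 0 and 0 CPM in blastocysts. Of 8 immediate early genes, which cells switch on under handling and stress, 0 were called. At an unadjusted p under 0.05 the cumulus, sperm, oocyte, 2-cell and immediate early lists held 0, 0, 3, 0 and 0 genes. edgeR called none of them, DESeq2 called 1 oocyte gene higher, and 1 was lower after quantile normalization and 2 once the length trend was removed.

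Of 30 genes of cell junctions and polarity tested, 10 rose and 0 fell, against 7.77% of all genes higher, with a median log2 change of 1.61, although 1 was lower in each of quantile normalization, DESeq2 and the fit without the length trend. In 10 of the 30 all blastocysts lay above all morulae, against 4.48% of all genes. Cdh1, which encodes E-cadherin of adherens junctions, went from 114 to 342 CPM (median 227) to 630, 695 and 990 CPM, a log2 change of 1.69 ± 0.31 (adjusted p = 0.000554). Desmosomal cadherins rose with it. Dsc2 went from 0 to 5.85 CPM (median 0) to 55.8, 33.6 and 154 CPM (log2 change 5.74 ± 0.72), and Dsg2 from 0 to 18.9 CPM (median 1.00) to 27.9, 79.3 and 199 CPM (4.88 ± 1.11). The gap junction gene Gjb5 went from 0 to 32.2 CPM (median 7.80) to 241, 69.5 and 78.0 CPM, and the epithelial adhesion gene Epcam from 0 to 224 CPM (median 48.5) to 360, 832 and 857 CPM. The others called included Cldn3 of tight junctions, Pard3 of the polarity complex, Ezr and Nectin2. Only Ezr overlapped the morulae among the 10.

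The catenins that bind E-cadherin did not pass the test. Ctnna1 was at 93.6 to 350 CPM in morulae and 305, 333 and 331 CPM in blastocysts, and Ctnnb1 at 49.7 to 288 CPM and 296, 202 and 243 CPM. The 10 calls became 4 without each of the blastocysts, and Cdh1 and Dsc2 held without any 1 library. Cldn3, at 0 in every morula and at 1.07, 4.20 and 83.2 CPM in blastocysts, rested mostly on blastocyst 3. Of 11 genes of ion and water transport into the cavity, 2 rose and 0 fell, although 1 was lower after quantile normalization and 3 once the length trend was removed. Slc9a3r1, a scaffold of membrane transporters, went from 0 to 65.9 CPM (median 1.75) to 47.2, 175 and 283 CPM. Atp1b1, for a beta subunit of the sodium pump, at 0 to 109 CPM in morulae (median 38.4) and 162, 214 and 153 CPM in blastocysts, did not overlap but did not pass the test (adjusted p = 0.105).

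Of 22 Hippo pathway genes tested, 2 rose and 0 fell, with a median log2 change of 0.18, a share near the 7.77% of all genes that were higher. With the length trend removed 2 were higher and 2 lower. Stk3, one of the kinases at the head of the pathway, went from 0 to 37.9 CPM (median 2.34) to 75.1, 159 and 74.5 CPM (log2 change 4.60 ± 1.13, adjusted p = 0.00766), and lost its call without blastocyst 2. Tead3, a DNA-binding partner of YAP, had 1 read in the morulae and 2.15, 2.80 and 63.1 CPM in the blastocysts. Its call could not be repeated without a blastocyst, because it then fell under the filter of 3 libraries. Lats1 and Lats2, the kinases below Stk3, were at 65.4, 17.2 and 14.9 CPM and at 0, 44.3 and 56.1 CPM in the blastocysts and did not pass the test.

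Among signalling lists, FGF and ERK genes had 2 of 19 higher and 1 lower, against 7.77% and 5.39% of all genes. The 2 became 1, 0 and 1 without blastocyst 1, 2 or 3. Fgf4, the ligand, was at 0 to 34.4 CPM in morulae (median 0) and at 150, 11.7 and 0.876 CPM in blastocysts, where only blastocyst 1 lay above all morulae (adjusted p = 0.214). Frs2, the adaptor of FGF receptors, rose from 7.43 to 166 CPM (median 38.9) to 121, 338 and 470 CPM, and Spry1, a feedback inhibitor, was at 0 in all morulae and 1.07, 23.8 and 4.38 CPM in blastocysts. Sos1, the exchange factor that activates RAS, fell from 34.6 to 444 CPM (median 199.99) to 4.29, 17.2 and 60.4 CPM (log2 change -3.31 ± 0.64, adjusted p = 0.000957). Of 8 LIF and STAT3 genes 3 rose, which became 1, 0 and 2 without blastocyst 1, 2 or 3. Il6st, for the shared receptor subunit gp130, went from 0 to 13.0 CPM (median 0) to 61.1, 62.9 and 2.63 CPM, and Stat3 from 4.69 to 132 CPM (median 28.1) to 164, 243 and 237 CPM. Il6st lost its call without blastocyst 1 or 2 and Stat3 without blastocyst 2 or 3. The third was Tfcp2l1.

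Of 18 Nodal and BMP genes 3 rose, against 7.77% of all genes higher. Foxh1, the partner of SMADs in the Nodal response, went from 0 to 17.1 CPM (median 0) to 67.6, 46.2 and 40.3 CPM, a log2 change of 5.03 ± 0.90 (adjusted p = 0.000403). Id2, a target of BMP, is given above, and Smad5 held 2 reads in all morulae and 36.5, 0 and 8.76 CPM in the blastocysts. Of 21 genes of the extracellular matrix and integrins, 6 rose and 0 fell, with a median log2 change of 2.14, the highest of the lists after trophectoderm. They were Spp1, Lama1, Lamb1, Lamc1, Sparc and Fn1, for fibronectin, which went from 0 to 111 CPM (median 13.0) to 1056, 616 and 9.64 CPM. Spp1 and Lama1 had no read in any morula, so their calls are not separate support for a rise. Lamb1 went from 11.7 to 244 CPM (median 92.8) to 324, 440 and 323 CPM and was even across the blastocysts. The 6 calls became 1, 1 and 2 without blastocyst 1, 2 or 3.

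**Figure D3:**
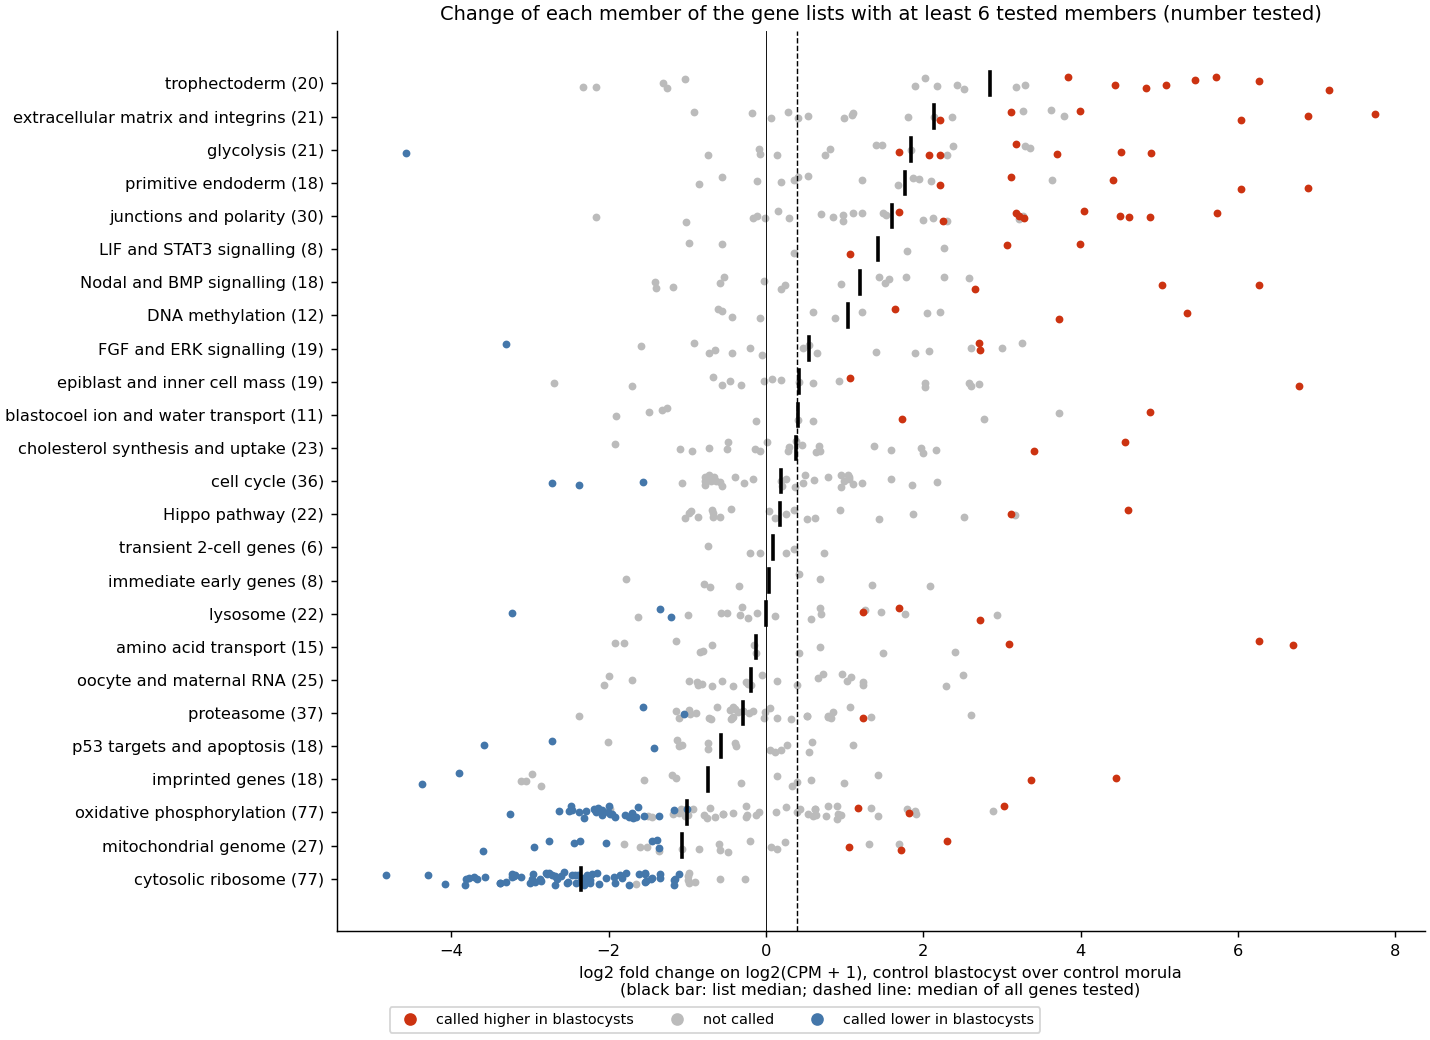
Log2 fold change of control blastocysts over control morulae for each tested member of the 25 lists with at least 6 tested members, with called genes in colour, the list median as a black bar and the median of all genes (0.40) as a dashed line. Trophectoderm lies highest with a median of 2.85 and the cytosolic ribosome lowest with -2.35, and called members of most lists lie on 1 side.

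Of 21 glycolysis genes tested, 7 rose and 1 fell, against 7.77% and 5.39% of all genes, with a median log2 change of 1.84. The 7 were Gpi1, Pfkm, Aldoa, Gapdh, Pgk1, Eno1 and Pdk1, all but Pdk1 enzymes of the pathway itself. Gapdh went from 5.47 to 192 CPM (median 32.6) to 690, 730 and 758 CPM, a log2 change of 4.51 ± 0.90 (adjusted p = 0.00121). Pgk1 went from 0 to 64.5 CPM (median 1.26) to 88.0, 79.3 and 131 CPM (log2 change 4.89 ± 1.18, adjusted p = 0.00632). Both lay in a narrow range across the 3 blastocysts, and in them, Gpi1, Pfkm and Aldoa all blastocysts lay above all morulae, while Eno1 and Pdk1 overlapped. Pfkm, for phosphofructokinase, went from 0 to 11.9 CPM (median 0) to 39.7, 18.2 and 21.9 CPM. Hk1 fell, as given above, while Hk2 was at 0 to 135 CPM in morulae and 8.58, 76.5 and 102 CPM in blastocysts and did not pass the test. Glucose transporters Slc2a1 and Slc2a3 did not pass it either. The 7 calls became 4, 5 and 4 without blastocyst 1, 2 or 3, 4 on the deposited scale and 3 in edgeR.

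Among nuclear genes of the respiratory chain more fell than rose. Of 77 genes of oxidative phosphorylation tested, 30 fell and 3 rose, against 5.39% and 7.77% of all genes, with a median log2 change of -1.0. Atp5k, a small subunit of ATP synthase, fell from 102 to 297 CPM (median 140) to 7.51, 26.6 and 14.9 CPM (log2 change -3.26 ± 0.41, adjusted p = 6.81e-06). Ndufs5, of complex I, fell from 72.4 to 186 CPM (median 142) to 7.51, 34.0 and 33.3 CPM. The 3 that rose were Atp5a1, Sdha and Uqcrc2, which are core subunits. Atp5a1 lost its call without blastocyst 1, and Sdha and Uqcrc2 without any of the 3 blastocysts. Sdha, of complex II, went from 1.46 to 117 CPM (median 33.6) to 269.2, 254 and 187 CPM (log2 change 3.03 ± 0.89, adjusted p = 0.0249). The 30 fell to 13 without blastocyst 1 and were 26 and 23 without blastocyst 2 or 3, and edgeR called 19.

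The change of a gene in this list varied with the length of its transcript. In the 11 members with transcripts up to 500 nt the median log2 change was -1.98, in the 35 from 500 to 750 nt it was -1.03, and in the 15 from 1000 to 2000 nt it was 0.91. Genes outside the ribosome list with a mean of at least 20 CPM in a group showed the same order, with medians of -1.36 in 272 genes up to 500 nt, 0.54 in 2117 genes from 1000 to 2000 nt and 0.94 in 768 genes above 5000 nt. The 3 members of the list from 2000 to 5000 nt did not follow this order, with a median of -1.36. With the trend with length removed, 24 members were lower and 1 was higher.

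RNA of the mitochondrial genome changed in both directions, though its total share of reads was higher in blastocysts. Of 27 genes tested, 3 rose and 9 fell, against 7.77% and 5.39% of all genes. The 9 became 4, 5 and 5 without blastocyst 1, 2 or 3 and 5 in edgeR. mt-Rnr2, the large ribosomal RNA, went from 13638 to 26590 CPM (median 20586) to 68471, 53310 and 71375 CPM (log2 change 1.72 ± 0.15), and mt-Co1, of complex IV, from 1283 to 4846 CPM (median 2109) to 11954, 12303 and 8955 CPM (2.30 ± 0.26). mt-Nd2 fell from 959 to 1986 CPM (median 1539) to 370, 626 and 718 CPM, and mt-Rnr1, the small ribosomal RNA, from 446 to 2724 CPM (median 1137) to 298, 414 and 279 CPM. Among the short ones, mt-Nd3 held 2 reads in all blastocysts and 201 in all morulae, and the transfer RNA mt-Tq fell from 67.3 to 171 CPM to 13.9, 23.3 and 23.7 CPM. Without length division and without strand, reads of overlapping mitochondrial genes cannot be told apart.

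The cytosolic ribosome had the largest share of called members of all lists. Of 77 ribosomal protein genes tested, 69 fell and 0 rose, with a median log2 change of -2.35, and in 72 all blastocysts lay below all morulae, against 4.29% of all genes. Together these genes took 51503 to 88471 CPM in morulae and 17611, 21393 and 16069 CPM in blastocysts, which did not follow the order of their lineage markers. Rpl38 fell from 432 to 1068 CPM (median 692) to 16.1, 53.6 and 14.9 CPM, a log2 change of -4.83 ± 0.33 (adjusted p = 2.52e-09). Rps29 fell from 709 to 1797 CPM (median 1156) to 42.9, 103 and 40.3 CPM (log2 change -4.30 ± 0.29). Rpl37 fell from 449 to 1036 CPM (median 696) to 15.0, 117 and 36.8 CPM, and Rpl41 from 1716 to 6175 CPM (median 2798) to 110, 380 and 184 CPM.

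The spread among members was wide. Rpl10 was at 982 to 2075 CPM in morulae (median 1243) and 887, 970 and 718 CPM in blastocysts and did not pass the test (log2 change -0.59, adjusted p = 0.0506), while Rpl11 fell from 404 to 1095 CPM (median 724) to 159, 195 and 196 CPM. Members with transcripts up to 500 nt had a median log2 change of -3.10 (14 genes), those from 500 to 750 nt -2.68 (31 genes) and those from 1000 to 2000 nt -1.47 (11 genes). Each of these medians lay below that of other genes of its length. With the trend of all genes with length removed, 73 members were lower and the median was -2.31. The list was 67 to 72 lower without blastocyst 1, 2 or 3. Ribosomal protein genes have many processed copies in the genome, whose reads the counting could divide between copies, and Rpl37rt, a copy of Rpl37, fell from 47.8 to 128 CPM (median 71.9) to 0, 8.86 and 1.75 CPM.

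**Figure D4:**
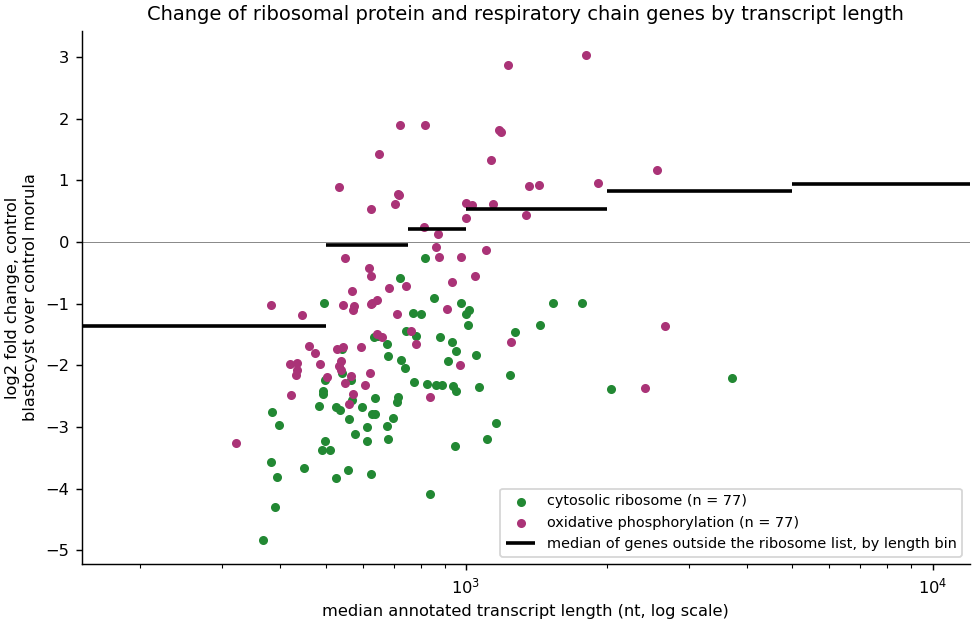
Log2 fold change of control blastocysts over control morulae against the median annotated transcript length (log axis) for 77 ribosomal protein genes and 77 genes of oxidative phosphorylation, with black bars for the median of other genes in 6 length bins. Up to 2000 nt both lists fall more for shorter transcripts, while the 2 ribosomal genes and 3 of oxidative phosphorylation from 2000 to 5000 nt leave this order. The median of the ribosomal genes, though not every gene, lies below the bar in each bin that holds them.

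Ribosomal protein messages are known to begin with a run of pyrimidines through which their translation is controlled together. The starts of the 5 most strongly lowered members with a RefSeq entry are shown for this reason, as the 10 bases before and the 20 from the annotated start, with runs of 5 or more C or T in capitals (GRCm38.p6). They are chr11:114668570-114668599 on the plus strand for Rpl38, chr15:5116603-5116632 on the plus strand for Rpl37, chr10:128549149-128549178 on the minus strand for Rpl41, chr2:180257369-180257398 on the plus strand for Rps21 and chr3:130730379-130730408 on the minus strand for Rpl34.
Rpl38: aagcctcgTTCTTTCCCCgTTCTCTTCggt
Rpl37: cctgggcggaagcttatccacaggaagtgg
Rpl41: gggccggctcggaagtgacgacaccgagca
Rps21: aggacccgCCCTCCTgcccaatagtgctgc
Rpl34: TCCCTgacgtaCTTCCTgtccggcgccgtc
Such a run stood in this window in 45 of 68 promoters (66.2%) of the ribosomal protein genes, of which 57 had an entry, and in 15239 of 32841 promoters of all genes (46.4%). The hexamer CTTTCC, or its reverse complement GGAAAG, stood in 50% of the ribosomal and 26.6% of all promoters over 300 bases. Rpl37 and Rpl41, which fell as far as Rps21, hold no run in this window. Of 37 proteasome genes tested 2 fell, Psmc1 and Psmd8, and 1 rose, Psmd1, with a median log2 change of -0.29, against 5.39% of all genes lower and 7.77% higher. Psmc1 lost its call without blastocyst 3, Psmd1 without each of the 3 blastocysts, and Psmd8 without each of these or either of 2 morulae. With the length trend removed 6 of the list were lower and 0 higher (median -0.84).

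Membrane and lysosomal genes were mixed. Of 22 lysosome genes 3 rose and 3 fell, against 7.77% and 5.39% of all genes. Psap, for the precursor of saposins, rose from 590 to 2062 CPM (median 1092) to 3784, 6796 and 12881 CPM (log2 change 2.72 ± 0.30, adjusted p = 1.32e-06), and Lamp1 rose from 206 to 525 CPM to 752, 996 and 901 CPM. Ctsz, a cathepsin, fell from 27.0 to 215 CPM (median 101) to 6.44, 7.93 and 10.51 CPM, and Npc2 and Grn fell with it. Of 15 amino acid and peptide transporters 3 rose, Slc7a8, Slc15a2 and Slc1a4, and of 23 genes of cholesterol synthesis and uptake 2 rose, Nsdhl and Tm7sf2, a share near the 7.77% of all genes. With the length trend removed 1 of that list was lower, and neither edgeR nor DESeq2 called any of it. Without blastocyst 1, 2 or 3 the lysosomal rises were 2, 1 and 2.

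Cell cycle genes showed 3 lower and 0 higher of 36, against 5.39% of all genes lower, and 9 lower once the length trend was removed. Ccne1, for cyclin E1 at entry into S phase, fell from 85.5 to 270.1 CPM (median 183) to 53.6, 22.4 and 26.3 CPM (log2 change -2.38 ± 0.41, adjusted p = 0.000246). Cdt1, which licenses replication origins, fell from 131 to 503 CPM (median 270.2) to 90.1, 104 and 71.8 CPM. Cdkn1a, for the cyclin-dependent kinase inhibitor p21 and a target of p53, fell from 105 to 936 CPM (median 364) to 47.2, 45.2 and 74.5 CPM (-2.72 ± 0.52). Among 18 p53 targets and apoptosis genes 3 fell and 0 rose, namely Cdkn1a and the proapoptotic BCL2 family genes Bok, at 33.3 to 229 CPM and then 8.58, 0.932 and 24.5 CPM, and Bax, at 84.8 to 200 CPM and then 67.6, 31.7 and 46.4 CPM. Trp53 itself was at 9.04 to 149 CPM in morulae and 183, 97.9 and 14.0 CPM in blastocysts and did not pass the test.

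DNA methylation genes had 3 of 12 higher, against 7.77% of all genes. Uhrf1, which brings DNMT1 to newly copied DNA, went from 4.02 to 46.8 CPM (median 15.6) to 234, 364 and 106 CPM (log2 change 3.72 ± 0.75, adjusted p = 0.00140), and Tdg, a glycosylase of active demethylation, from 0 to 23.8 CPM (median 0) to 66.5, 132 and 110 CPM. Tet2 was the third and lost its call without each blastocyst. Dnmt1, Dnmt3a, Dnmt3b and Dnmt3l did not pass the test. Of 18 imprinted genes 2 rose and 2 fell, against 7.77% and 5.39% of all genes, while DESeq2 gave 1 and 6. The 2 rises became 0, 2 and 1 without blastocyst 1, 2 or 3. Meg3, at 0 to 38.7 CPM in morulae (median 0), was at 113, 55.5 and 7.88 CPM in blastocysts, and Igf2, at 0 to 8.67 CPM, was at 12.9, 1.86 and 159 CPM, so the highest blastocyst of Meg3 was the first and that of Igf2 the third. Snrpn, whose transcripts also carry Snurf and whose reads could be split with it, fell from 14.2 to 109 CPM (median 66.3) to 1.07, 8.86 and 2.63 CPM (log2 change -3.91 ± 0.64), and Gab1 from 29.7 to 188 CPM (median 92.6) to 62.2, 0.932 and 0 CPM, where blastocyst 1 overlapped the morulae.

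Whether this control change differed from that of the embryos exposed to light was tested by the difference of the changes, which share no library. Of 18123 genes tested, 271 (1.5%) differed by limma, 183 (1.01%) with a higher change in the control group and 88 (0.486%) with a lower one. Without control blastocyst 1 the number was 137. The split depended on the scale, with 283 higher and 21 lower on the deposited scale, 104 and 120 after quantile normalization, 67 and 211 in DESeq2, 101 and 141 with the length trend removed and 46 and 75 above a mean of 5 CPM. The light blastocysts were more alike in lineage markers than the control blastocysts, with trophectoderm markers at 11601 to 15824 CPM in all 6, and reads on 5 Y-linked genes reached 10 CPM in all 6 of them and in 1 of 6 light morulae but in none of the control libraries of either stage. The ratio of Gm42418 to CT010467.1 reads, which changed between the control stages, was 1.49 to 1.67 in light morulae and 1.29 to 1.75 in light blastocysts. Y-linked sums were 42 to 168 CPM in the light blastocysts and at most 1.07 CPM in the control blastocysts. Among blastocysts Y-linked RNA and light therefore cannot be told apart. The part of these measures in the differences was not tested.

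Spp1 rose in the control group, as given above, but was at 0 to 9.03 CPM in light morulae and 0 to 2.90 CPM in light blastocysts, a difference of changes of 7.80 ± 1.05 (adjusted p = 5.41e-05). Lama1 and Upp1 also had higher changes in the control group, by 4.57 ± 1.00 and 5.20 ± 1.03, and these 3 are genes that were highest in blastocyst 1. Slc25a40, a mitochondrial carrier, and the kinase gene Wnk3 were not DEGs of the control comparison. Slc25a40 was at 0 to 66.7 CPM in control morulae and 109, 19.1 and 19.3 CPM in control blastocysts, against 2.14 to 60.7 CPM and 0 to 12.2 CPM in the light group, where the stages overlapped. It had a difference of 6.31 ± 1.56 (adjusted p = 0.0260) and Wnk3 of 5.83 ± 1.56 (adjusted p = 0.0458). Slc25a40 lost its call without control blastocyst 1 or light blastocyst 13, and Wnk3 lost its call without any of 17 libraries, the 3 control blastocysts among them.

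Among genes with a lower change in the control group, Epas1 fell in control embryos but was at 242 to 1107 CPM in light morulae and 433 to 989 CPM in light blastocysts, where the groups overlapped (difference -6.83 ± 0.63, adjusted p = 1.58e-08). Sall1, for a zinc-finger factor of the inner cell mass, was at 0 to 159 CPM in control morulae and 1.07, 0 and 0 CPM in control blastocysts. In the light group the stages overlapped, at 0 to 42.8 CPM in morulae and 9.67 to 24.0 CPM in blastocysts (difference -7.25 ± 1.41, adjusted p = 0.00329). Lncenc1, a long noncoding RNA of pluripotent cells, was at 0 to 159 CPM in control morulae and 17.2, 1.40 and 0 CPM in control blastocysts. In the light group it was at 0 to 105 CPM in morulae and 118 to 164 CPM in blastocysts (difference -7.03 ± 1.46, adjusted p = 0.00628). The imprinted gene Peg10 had 0 to 5.03 CPM in control morulae and 1.07, 0 and 0 CPM in control blastocysts. It had 0 to 1.19 CPM in light morulae and 67.01 to 331 CPM in light blastocysts, a difference of -7.05 ± 0.90 (adjusted p = 2.83e-05).

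Of 20 imprinted genes tested, 5 had a lower change in the control group and 0 a higher one, against 0.486% and 1.01% of all genes. The 5 were Peg10, Peg3, Plagl1, Snrpn and Gab1. The mean level of Peg3 was 17.9 ± 20.2 CPM (SD, n = 13) in control morulae and 0.155 ± 0.269 CPM (n = 3) in control blastocysts, against 22.4 ± 34.2 CPM and 90.1 ± 45.6 CPM in light morulae and blastocysts (n = 6 each). Snrpn was at 128 ± 46.0 CPM in light morulae and 93.7 ± 28.7 CPM in light blastocysts. Of 77 ribosomal protein genes 16 had a lower change in the control group and 0 a higher one. Rpl38, at 134 to 409 CPM in light morulae and 26.1 to 237 CPM in light blastocysts, had a difference of -3.03 ± 0.58 (adjusted p = 0.00273). The sum of the ribosomal list was 47494 to 56486 CPM in light morulae and 16404 to 47238 CPM in light blastocysts, so the highest light blastocyst lay just below the lowest light morula.

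**Figure D5:**
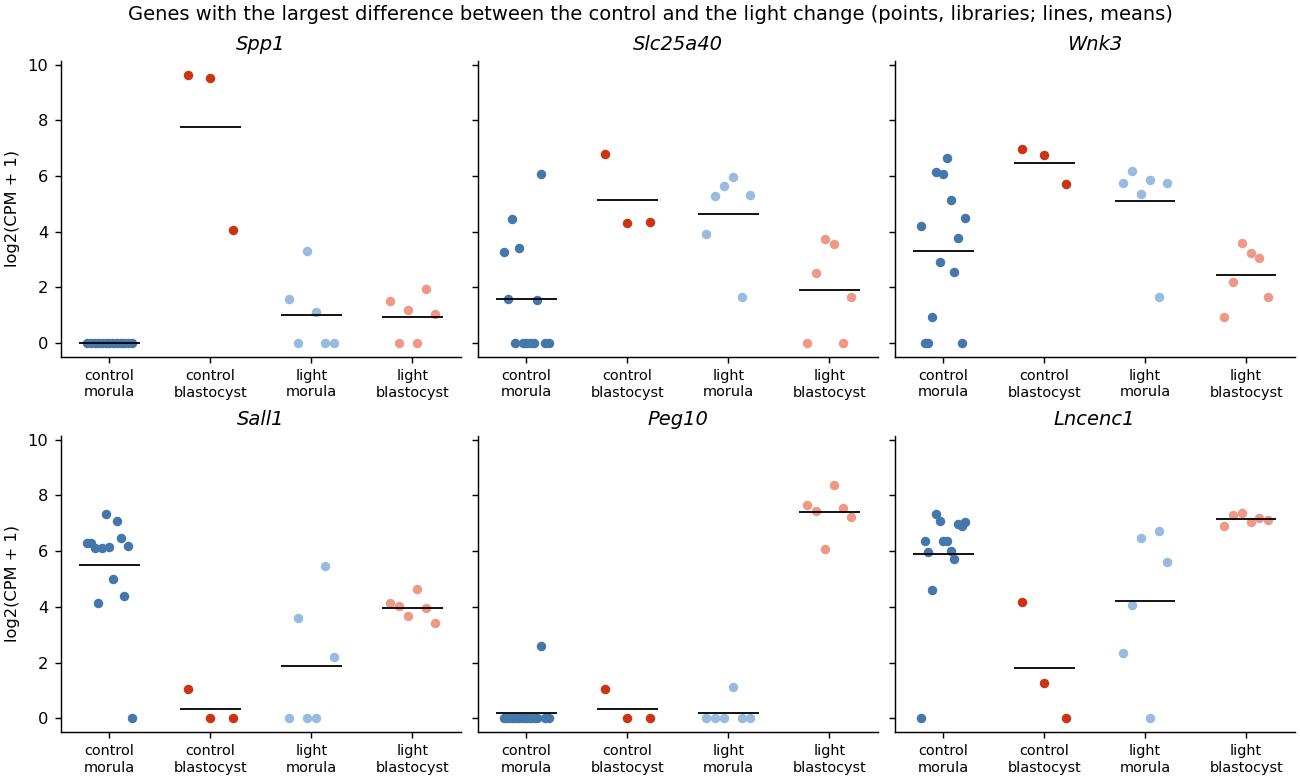
Level of the 3 genes with the largest higher and the 3 with the largest lower change in the control group, on a log2(CPM + 1) axis, in control and light morulae and blastocysts, with a line at each mean. Spp1 is above 9.03 CPM only in control blastocysts, and Sall1, Peg10 and Lncenc1 are each higher in all 6 light blastocysts than in any of the 3 control blastocysts.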

How the data were processed

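RNA of 13 control morula and 3 control blastocyst libraries was compared, and 6 light morula and 6 light blastocyst libraries entered the test of the difference between the changes. The authors deposited 1 signal value per gene and library for 26414 genes, namely a read count over a library's size factor, with no division by transcript length, although the study's methods describe RPKM. Multiplied by that factor, 99.95% or more of the values in any library came within 0.01 of a whole read. The submitters' processing notes name HISAT2, HTSeq 0.9.1 and the build mm9, so no gene coordinates from GRCm38 are given except those of the RefSeq stretches. CT010467.1 and Gm42418 took most reads, so values were rescaled to CPM over all genes outside that pair.

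In R 4.3.3, a linear model with a mean-variance trend (limma 3.58.1) was fitted to log2(CPM + 1) for genes above 1 CPM in at least 3 of the libraries compared, and fold changes are on that scale, which understates changes of low genes. DEGs had a Benjamini-Hochberg adjusted p under 0.05 over all genes tested and a change of at least 2-fold. No covariate was used, since no batch is named. Total reads were 3373581 to 8172449 in the control libraries, and intervals and floors cover counting error only, since PCR copies without identifiers of the original molecules were counted. The closest libraries of each stage differed by a chi-square per degree of freedom of 17.5 or more, so none was counted as a repeat. In a test on simulated data for this comparison (14304 genes), 17 of 100 genes changed 4-fold and 71 of 100 changed 16-fold were recovered, 0 in the wrong direction, with 14 false calls. The simulated blastocysts had the spread of the morulae, so these rates do not cover the larger lineage differences among the real blastocysts.

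The genes named are the 12 largest rises and 12 largest falls among DEGs with groups that do not overlap, a mean of at least 20 CPM in a group and the same call on the deposited scale, the 3 largest each way for the difference between the changes, and of each list the first 4 members and up to 4 called members with the largest change. Predicted genes, ribosomal pseudogenes and histones were left out of the largest changes. Other members named, such as Krt8, Tfap2a, Grn, Aldoa and Eno1, were chosen after their values were seen. The members and the lists were chosen with earlier results of these data known. Lists are described by counts and medians, without a set test, and some members that the rule would name are not reported here. Transcript lengths are medians of GENCODE M21, found for 99.68% of the symbols. The alternatives were the deposited scale, median ratio scaling, quantile normalization, a pseudocount of 0.1, no filter, a mean above 5 CPM, 1 fit over all libraries, library weights, reads thinned to equal depth, edgeR 4.0.16, DESeq2 1.42.0, a replicate block and each library left out. The fit with the length trend removed was added after the data were seen. Tables and plots were made in Python 3.11.15 with pandas 2.3.3, scipy 1.17.1 and matplotlib 3.10.9.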

Additional observations from a re-analysis of the deposited data

Results flagged for a closer look

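The difference between the control and the light change from morula to blastocyst was tested as such, and 271 genes differed. Among the genes named for it, the control change minus the light change was 7.80 on the log2 scale for Spp1, 6.31 for Slc25a40, 5.83 for Wnk3, -7.25 for Sall1, -7.05 for Peg10 and -7.03 for Lncenc1. Among the genes that rose or fell most in the control group it was 4.57 for Lama1, 5.20 for Upp1, -6.83 for Epas1, -3.03 for Rpl38, -2.99 for Rpl37rt, -3.70 for Hk1, -3.49 for Gadl1 and -2.30 for Rps29. Of the lists, 2 of 22 genes of the extracellular matrix and integrins had a higher control change, against 1.01% of all genes. A lower one was found for 5 of 20 imprinted genes, 8 of 77 genes of oxidative phosphorylation and 16 of 77 of the cytosolic ribosome, against 0.486%. Wnk3 lost its call without any of 17 libraries in turn, and Slc25a40 without control blastocyst 1 or light blastocyst 13.

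In light morulae a library stood apart from the other 5 in Wnk3 and a different one in Peg10. For Wnk3 the gap of light morula 9, at 2.14 CPM, to the nearest library was 0.816 of the range on log2(CPM + 1). For Peg10 the gap of light morula 6, at 1.19 CPM, was 1.00 of the range, with the other 5 libraries at 0. That 1.19 CPM is 1 read, so for Peg10 the value of 1.00 follows from a single read against 0 elsewhere. How often chance alone picks out a group in this way was not measured.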

How the results depend on the processing

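The 2068 DEGs of control blastocysts against control morulae became 3762 in 1 fit over all libraries, 3500 with library weights, 1232 in edgeR and 1115 to 2133 with a library left out, the lowest values being those without a blastocyst (1219, 1230 and 1115). The 271 genes that differed between the control and the light change became 121 above a mean of 5 CPM, 601 in 1 fit over all libraries, 464 with library weights and 137 to 296 with a library left out. The median log2 change of all genes was 0.26 on the deposited scale, 0.53 with median ratio scaling, -0.06 after quantile normalization and 0.07 in edgeR. Higher and lower DEGs numbered 802 and 1097 after quantile normalization, 512 and 1010 in DESeq2, 782 and 1134 with the length trend removed and 723 and 844 above a mean of 5 CPM. None of the 201 genes named or called in a list changed its direction in any alternative. Outside the replicate block, the most calls of these genes were lost with the length trend removed (35 of 201) and in DESeq2 (34). The cause of these shifts was not tested.

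The control groups share 2 replicate numbers. Morula and blastocyst of the same number had deviations correlated at 0.0144 and 0.0108. With only 2 such pairs, these values cannot decide whether the numbers pair the samples. With the number as a replicate block 0 DEGs were left, with 2210 genes at an unadjusted p under 0.05 in limma, and 1 gene for the difference between the changes. In the control comparison every number outside the shared 2 holds a single library. That fit thus had almost nothing left to measure spread from, and its 0 DEGs do not bear on the calls. With 3 blastocysts, genes at few reads in either stage could be tested only for large changes.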
